A study of Mus musculus with 14 samples.

Results

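The proneural bHLH genes Atoh7, Neurog2, Neurod1, Neurod2, Neurod4, Olig2, Bhlhe22 and Ptf1a were examined in the H3K27ac ChIP-seq peak list of the embryonic day (E) 14 mouse retina. For each of the 8 genes, every peak that overlapped the gene body or the 50 kb on either side was taken, with positions on mm9 and gene models of GENCODE vM1. This gave 9 of the 13463 peaks in the list. Peaks were taken by distance from these genes. The study concerns the LIM homeodomain factor LHX2 in retinal progenitors and holds 14 samples in all, of ATAC-seq, RNA-seq and ChIP-seq. Only the H3K27ac sample of E14 was analysed here, which comes from the outbred mouse strain CD1 with no deletion of Lhx2 in its title. Its label names retinal progenitor cells, whereas the methods of the study describe ChIP on whole dissected retinas, so that newborn neurons may be included. The alignments of 2 ChIP replicates were pooled for peak calling against 1 isotype control, so each peak has a single value. No replicate error and no test can therefore be given, and differences between peaks are described by rank only.

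Proneural factors are basic helix-loop-helix (bHLH) proteins that drive progenitors out of the cell cycle and into neuronal fates. They bind DNA as dimers with the broadly expressed E proteins, at the hexamer CANNTG known as the E-box, and they activate one another in cascades that separate the retinal cell types. Acetylation of histone H3 at lysine 27 (H3K27ac) marks active promoters and enhancers, and in a tissue of many cells a gene that is active in few of them contributes little to the signal. A lower share of positive cells and less acetylation per cell cannot be told apart in these data.

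The tissue was checked by peaks within 1000 bp of an annotated transcription start site (TSS), here called TSS peaks. The marker lists were chosen with earlier results of these data known. Of 10 retinal progenitor markers, among them Pax6, Six6 and Sox2, 10 had a TSS peak, against 49.8% of all protein-coding genes. None of 4 lens markers and none of 4 skeletal muscle markers had one. A TSS peak was found for 1 of 5 pigment epithelium markers (Pmel, whose 5′ end lay 752 bp from the peak) and for 1 of 5 endothelium and blood markers (Kdr). Which gene the peak near Pmel belongs to, and the part of such other cells in the peaks described here, were not tested. Peaks in the list had a median length of 1015 bp and a median pileup of 15.06, where pileup is the mean number of overlapping fragments per position after scaling by the peak caller. The median fold enrichment over the control was 4.46. The caller kept 113543038 ChIP tags and 9210563 control tags.

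Of the 8 proneural genes, 3 had a TSS peak, namely Atoh7, Neurog2 and Bhlhe22. Of all 22367 protein-coding genes, 49.8% had one. At least 1 peak lay in the window of 5 of the 8 genes, against 72.1% of protein-coding genes. The windows of Neurod4, Olig2 and Ptf1a held none. A peak without a TSS of any annotated gene within 1000 bp was present in 3 of the 8 windows, those of Atoh7, Neurog2 and Neurod1, against 17.8% of protein-coding genes. The 9 peaks thus comprised 3 at the gene's own TSS, 3 at the TSS of another gene and 3 at no TSS. With so few genes, each count differs from the share of all genes by at most 2 genes.

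**Figure D1:**
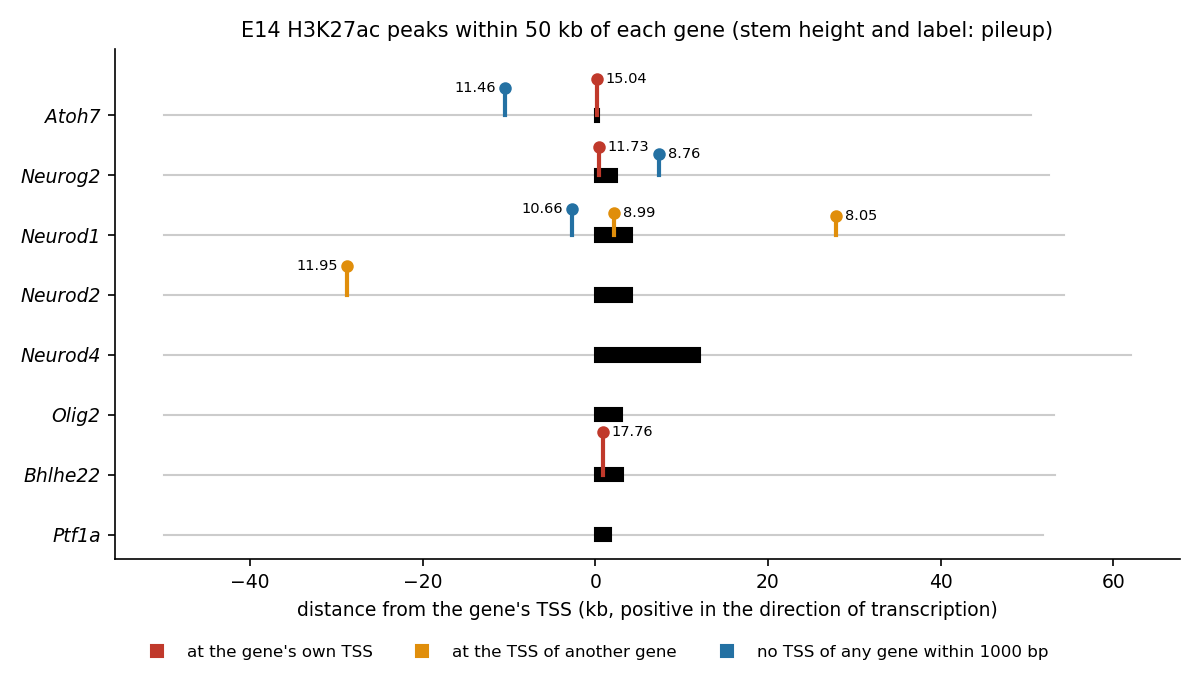
Position of the 9 H3K27ac peaks in the windows of the 8 genes. The horizontal axis gives the distance of the peak midpoint from the TSS in kb, black bars are gene bodies, and the height of each stem and its label give the pileup. The windows of Neurod4, Olig2 and Ptf1a are empty, and the highest pileup is the 17.76 of Bhlhe22.

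Sequences of the 3 peaks at no TSS are given first, because these are the candidate distal elements of the group and because each held the letters TAATTA once. TAATTA is the core of many homeodomain recognition sequences, including those of LIM homeodomain factors. The stretches below run 100 bases to either side of TAATTA on mm9, on the strand of the gene and in the 5′ to 3′ direction. Capitals mark CANNTG and TAATTA. They lie at chr10:62552278-62552483 (plus strand), chr3:127343082-127343287 (plus strand) and chr2:79299976-79300181 (minus strand).
Atoh7 upstream peak: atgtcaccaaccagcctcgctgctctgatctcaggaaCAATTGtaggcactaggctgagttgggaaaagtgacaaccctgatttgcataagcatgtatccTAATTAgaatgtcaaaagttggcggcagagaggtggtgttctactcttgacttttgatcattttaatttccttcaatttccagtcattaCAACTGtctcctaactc
Neurog2 downstream peak: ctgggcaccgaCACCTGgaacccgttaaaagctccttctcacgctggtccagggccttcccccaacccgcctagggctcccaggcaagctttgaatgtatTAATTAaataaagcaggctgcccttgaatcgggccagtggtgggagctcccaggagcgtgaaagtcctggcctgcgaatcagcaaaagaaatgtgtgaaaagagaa
Neurod1 upstream peak: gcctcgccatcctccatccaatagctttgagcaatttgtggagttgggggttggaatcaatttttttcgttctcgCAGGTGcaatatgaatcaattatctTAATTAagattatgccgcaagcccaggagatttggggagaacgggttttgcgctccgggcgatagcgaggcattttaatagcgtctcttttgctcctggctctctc

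The stretch near Atoh7 held 2 E-boxes and those near Neurog2 and Neurod1 held 1 each. Among all 2855 peaks of the list at no TSS, 15.9% held TAATTA, and among the 701 of these with a length of 900 to 1400 bp, a range set after the lengths of the 3 peaks had been seen, 20.7% did. None of the other 6 peaks of the group held it, against 8.65% of peaks at protein-coding TSSs. These matches are descriptions of the letters in each peak. Binding of a factor was not measured here.

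Promoters are shown for genes with contrasting acetylation, as the 250 bases before the RefSeq TSS, placed on mm9 by exact match, with the same capitals. The promoter of Neurog2 lay inside its TSS peak, that of Atoh7 ended just before its peak began, that of Neurod1 lay between peaks, and that of Neurod2 was far from any peak. Their positions are chr10:62562283-62562532 (Atoh7, plus strand), chr3:127335804-127336053 (Neurog2, plus strand), chr2:79296794-79297043 (Neurod1, minus strand) and chr11:98190960-98191209 (Neurod2, minus strand).
Atoh7 promoter: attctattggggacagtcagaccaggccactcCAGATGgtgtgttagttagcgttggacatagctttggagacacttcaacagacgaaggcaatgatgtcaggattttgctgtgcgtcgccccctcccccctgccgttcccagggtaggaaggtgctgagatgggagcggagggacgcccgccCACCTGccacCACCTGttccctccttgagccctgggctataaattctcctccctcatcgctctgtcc
Neurog2 promoter: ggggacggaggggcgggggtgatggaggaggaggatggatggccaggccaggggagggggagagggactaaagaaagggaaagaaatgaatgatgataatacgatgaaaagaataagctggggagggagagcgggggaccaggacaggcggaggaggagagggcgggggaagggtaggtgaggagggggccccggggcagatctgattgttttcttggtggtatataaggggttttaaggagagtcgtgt
Neurod1 promoter: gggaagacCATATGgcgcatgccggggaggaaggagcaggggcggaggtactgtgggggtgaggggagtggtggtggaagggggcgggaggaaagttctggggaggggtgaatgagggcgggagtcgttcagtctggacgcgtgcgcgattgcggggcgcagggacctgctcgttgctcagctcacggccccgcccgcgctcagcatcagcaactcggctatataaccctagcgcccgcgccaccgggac
Neurod2 promoter: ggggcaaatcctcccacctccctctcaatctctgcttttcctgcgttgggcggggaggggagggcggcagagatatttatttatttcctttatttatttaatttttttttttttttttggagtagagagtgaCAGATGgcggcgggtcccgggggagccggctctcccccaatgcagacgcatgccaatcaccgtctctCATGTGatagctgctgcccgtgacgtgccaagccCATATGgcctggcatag

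The promoters of Atoh7 and Neurod2 each held 3 E-boxes, that of Neurod1 held 1, and that of Neurog2 held 0. Of 32851 RefSeq promoters of this length, 66.2% held at least 1 E-box and 4.84% held TAATTA. None of these 4 promoters held TAATTA. The E-boxes of Neurod1 and Neurod2 included 1 CATATG each, a form found in 3.46% of promoters. Of the other matched genes, Neurod4, Olig2 and Ptf1a held 0 E-boxes in the same 250 bases and had no TSS peak. Neurod2 thus had 3 E-boxes and no TSS peak, and Neurog2 had a TSS peak and no E-box in this window. Motifs were searched on both strands, and the forms CAGCTG and CAGATG (or, on the other strand, CATCTG) as well as the form CATATG are counted within CANNTG.

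Atoh7 is required for the retinal ganglion cell lineage. Its gene model (ENSMUSG00000036816.3) lies at chr10:62562904-62563353 on the plus strand, and is a single stretch of 450 bp that is nearly all coding sequence. The TSS peak, at chr10:62562537-62563624, was 1088 bp long, with a pileup of 15.04 and a fold enrichment of 4.68. It ran from -0.367 to 0.72 kb around the TSS of the gene model and covered 100% of the coding sequence. By length, pileup and fold enrichment it stood at the percentiles 54.7, 49.9 and 57.2 of all peaks, close to the middle of the list in each. Of the 3 TSS peaks of the group, this was the only one that met stricter limits (fold enrichment of at least 4 and q of at most 0.001), which 64.1% of all peaks met. These take the fold enrichment and false discovery rate limits of the study, without its requirement of replicates or its p limit. The RefSeq TSS of Atoh7 lay 371 bp upstream of that of GENCODE vM1, and the peak began 4 bp downstream of it.

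An upstream peak of Atoh7 was found at chr10:62551985-62552917, from -10.9 to -9.99 kb, outside any annotated gene. It was 933 bp long, with a pileup of 11.46 and a fold enrichment of 4.67, nearly the same enrichment as at the TSS. Its pileup stood at the percentile 25.3 of all peaks. Compared only with the 2855 peaks at no TSS, it stood at the percentile 67.7 for pileup and 86.7 for fold enrichment. Between both peaks lay 9619 bp without a call. The GC content fell from 59.7% in the TSS peak to 48.4% in the upstream peak.

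Neurog2, a proneural factor expressed in progenitors as they leave the cell cycle, had the longest of the 9 peaks. The gene (ENSMUSG00000027967.7) lies at chr3:127336054-127338549 on the plus strand. Its TSS peak at chr3:127335361-127337635 was 2275 bp long and ranked 872 of 13463 by length, at the percentile 93.5. The same peak had a pileup of 11.73 (percentile 26.9) and a fold enrichment of 3.20, which ranked 12768, at the percentile 5.17. The peak was therefore long and shallow. It ran from -0.693 to 1.58 kb, covered 63.4% of the gene body and 100% of the coding sequence, and held 7 E-boxes, 3 of them CAGCTG and 3 CAGATG. Both its fold enrichment and its -log10 q of 1.93 fell outside the stricter limits.

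A further peak lay downstream of Neurog2 at chr3:127342805-127344165, from 6.75 to 8.11 kb past the TSS and outside any annotated gene. It was 1361 bp long, with a pileup of 8.76 and a fold enrichment of 3.99. The pileup stood at the percentile 9.97 of all peaks and at 34.4 of peaks at no TSS. Both its fold enrichment and its -log10 q of 2.47 were outside the stricter limits. This peak had 4 E-boxes, or 2.94 per kb, near the median of 3.48 per kb of all peaks.

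Bhlhe22, which acts in amacrine and bipolar cell subtypes, had the peak with the highest pileup of the group. The gene (ENSMUSG00000025128.6) lies at chr3:17954325-17957509 on the plus strand. The peak at chr3:17954465-17955893 was 1429 bp long (percentile 73.8) with a pileup of 17.76 (percentile 69.9), the only pileup among the 9 above the median of all peaks. The fold enrichment of 3.97 stood lower, at the percentile 32.1. The quotient of pileup and fold enrichment, a measure of the background against which the caller set the peak, was 4.47 and stood at the percentile 88.4. The peak started 140 bp downstream of the TSS and ended at 1.57 kb, so that it lay wholly within the gene, where it covered 100% of the coding sequence. With a GC content of 70.3% and a CpG ratio of 0.940 it was the richest of the 9 in both. It held 3 E-boxes, or 2.1 per kb. A RefSeq promoter for Bhlhe22 was not used here.

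The midpoints of the 3 TSS peaks lay 0.176 kb (Atoh7), 0.444 kb (Neurog2) and 0.854 kb (Bhlhe22) downstream of the TSS. Midpoints downstream of the 5′ end were found for all 3, and for 77.6% of protein-coding genes with a TSS peak, at a median of 221 bp over all such genes. This comparison was added after the positions had been seen. Each of the 3 peaks covered the whole coding sequence of its gene, and in all 3 the coding sequence is short, at 447 bp for Atoh7, 789 bp for Neurog2 and 1065 bp for Bhlhe22.

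**Figure D2:**
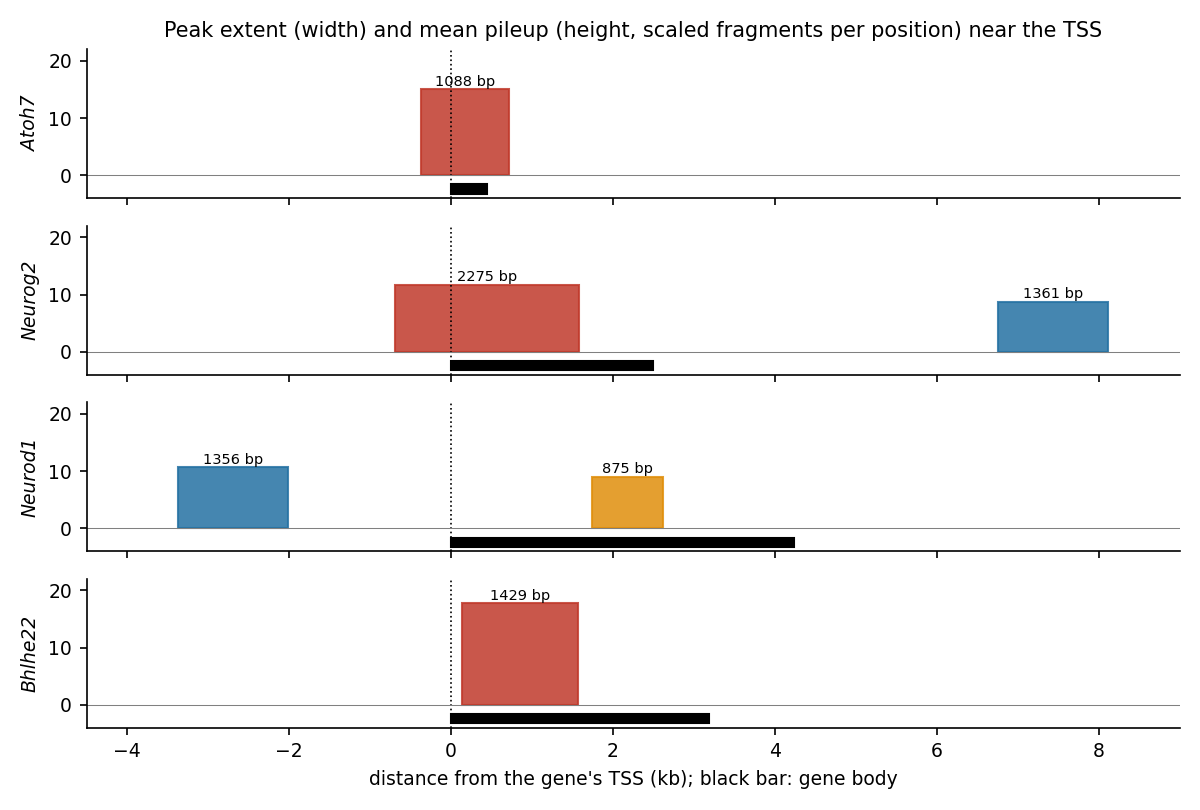
H3K27ac peaks close to the TSS of Atoh7, Neurog2, Neurod1 and Bhlhe22. The horizontal axis gives kb from the TSS, the width of each block is the extent of a peak, its height is the pileup, and colours are red for the gene's own TSS, orange for the TSS of another gene and blue for no TSS. The dotted line at the TSS of Neurod1 falls in a gap of 3759 bp between 2 peaks.

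Neurod1, a factor of photoreceptor and amacrine differentiation, had the most peaks in its window but none at its own TSS. The gene (ENSMUSG00000034701.8) lies at chr2:79292678-79296908 on the minus strand. An upstream peak at chr2:79298926-79300281 (1356 bp, pileup 10.66, fold enrichment 4.27) ended 2.02 kb before the TSS, inside the long non-coding RNA gene Gm17325. It met the stricter limits, and stood at the percentile 20.4 of all peaks and 59.6 of peaks at no TSS by pileup. It held 6 E-boxes, or 4.42 per kb, the highest density of the 9 peaks. A second peak at chr2:79294292-79295166 (875 bp, pileup 8.99, fold enrichment 3.49) lay within Neurod1 from 1.74 to 2.62 kb past the TSS. The whole of this peak was coding sequence of Neurod1, of which it covered 81.7%, and all 3 of its E-boxes were CAGATG or its complement. It was counted as a peak at the TSS of another gene because Gm17325 starts within 1000 bp of it.

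The 3759 bp between these peaks contained both annotated TSSs of Neurod1 and no call. The nearer edge of the inner peak was 1567 bp from the closest TSS, so that Neurod1 missed the limit of 1000 bp, whereas Bhlhe22 met it at 140 bp. The gap held 24 E-boxes and 4 copies of TAATTA. A transcript of the neighbouring gene Cerkl is annotated to start beside that of Neurod1, so a signal there could not be assigned to 1 gene. The third peak of the window, at chr2:79268752-79269217, lay at the main TSSs of Cerkl. With 466 bp and a pileup of 8.05 it was both the shortest and the lowest of the 9.

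Neurod2, a factor of neuronal differentiation, had 1 peak in its window, 28.3 kb upstream at the TSSs of Stard3 and 1700003D09Rik. This peak, at chr11:98219249-98220274, was 1026 bp long with a pileup of 11.95 and a fold enrichment of 4.33. The gene itself (ENSMUSG00000038255.6, chr11:98186729-98190962, minus strand) carried none. The nearest peak at no TSS lay 128 kb upstream, had a length of 319 bp and was closer to Grb7, so that no call could be placed at Neurod2 by position.

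No peak was called in the windows of Olig2, which marks a subset of retinal progenitors, of Ptf1a, which directs horizontal and amacrine cells, or of Neurod4, which acts with other bHLH genes in amacrine and bipolar cells. Olig2 (ENSMUSG00000039830.8) lies at chr16:91225795-91228922 on the plus strand, and its nearest peak was 84.2 kb away, with a length of 1542 bp and a pileup of 10.23. The nearest peak to Ptf1a (ENSMUSG00000026735.2, chr2:19367290-19369128, plus strand) was 73.7 kb away at the TSS of Msrb2. For Neurod4 (ENSMUSG00000048015.3, chr10:129705209-129717296, minus strand) the nearest peak was 190 kb away, a distance as large as or larger than that of 85.1% of protein-coding genes. A missing peak means that the pooled signal did not pass the limits of the caller. Acetylation below those limits was not measured here.

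**Figure D3:**
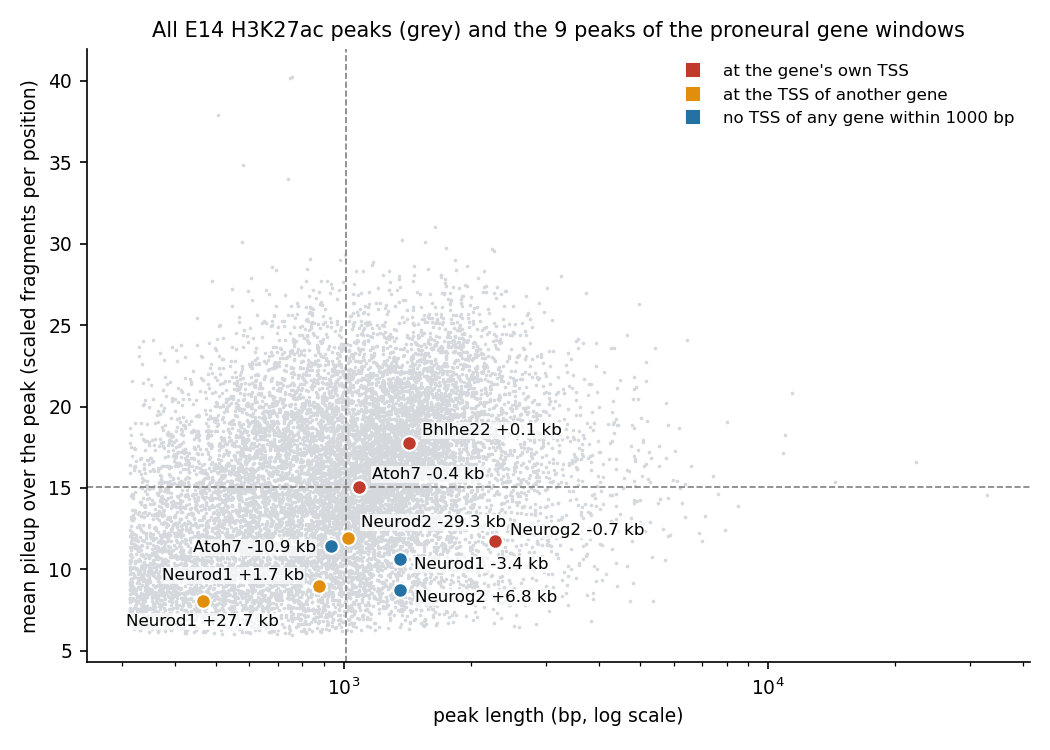
Length against pileup for all 13463 peaks (grey) and the 9 peaks of the proneural gene windows, labelled by gene and by the distance of the peak from the TSS. The length axis is logarithmic and dashed lines mark the medians of 1015 bp and 15.06. Of the 9 peaks, 8 lie below the median pileup and 6 lie above the median length.

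Among themselves, the 9 peaks varied more in length, from 466 to 2275 bp, than in pileup, from 8.05 to 17.76, or in fold enrichment, from 3.20 to 4.68. Relative to all peaks, 8 of the 9 lay below the median pileup, 7 below the median fold enrichment and 6 above the median length. By pileup, 4 of the 9 lay below 11.42, the lower quartile of the list. The stricter limits were met by 4 of the 9, against 64.1% of all peaks. The peaks at no TSS had pileups of 8.76, 10.66 and 11.46, below those at the gene's own TSS (11.73, 15.04 and 17.76). Those at the TSS of another gene, at 8.05, 8.99 and 11.95, overlapped with both. Over the whole list the median pileup was 9.90 for peaks at no TSS and 16.31 for peaks at a protein-coding TSS. Fold enrichments overlapped, at 3.99, 4.27 and 4.67 for the peaks at no TSS against 3.20, 3.97 and 4.68 at the gene's own TSS. The E-box density of the 9 peaks ranged from 0.975 to 4.42 per kb, with a median of 3.08 per kb, and their percentiles among all peaks ran from 8.21 to 65.6, so that none stood out for E-boxes.

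Set against protein-coding TSS peaks only, of which there were 10302, the 3 TSS peaks of the group ranked lower in pileup. Atoh7 stood at the percentile 38.8, Neurog2 at 14.6 and Bhlhe22 at 62.7. In fold enrichment they stood at 48.7, 4.14 and 23.9. In length they stood at 50.7, 93.4 and 71.5.

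The CpG content of the promoter was compared because acetylation peaks are common at CpG-rich promoters. The ratio of observed to expected CpG over the 500 bp to either side of the 5′ end was 0.852 for Neurog2, 0.791 for Bhlhe22 and 0.759 for Atoh7, the genes with a TSS peak. It was 0.743 for Olig2, 0.731 for Ptf1a and 0.679 for Neurod1, and lower for Neurod2 (0.455) and Neurod4 (0.200). The genes with a TSS peak thus had the 3 highest ratios of the group, with Atoh7 and Olig2 close together. A ratio of at least 0.6, a limit chosen after the values had been seen, was reached by 6 of the 8 genes. Of these, 3 had a TSS peak, against 86.4% of the 10204 protein-coding genes at or above that ratio. Below it, 0 of 2 genes had one, against 19.1% of protein-coding genes. Olig2, Ptf1a and Neurod1 therefore had CpG-rich promoters with no TSS peak in the list.

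**Figure D4:**
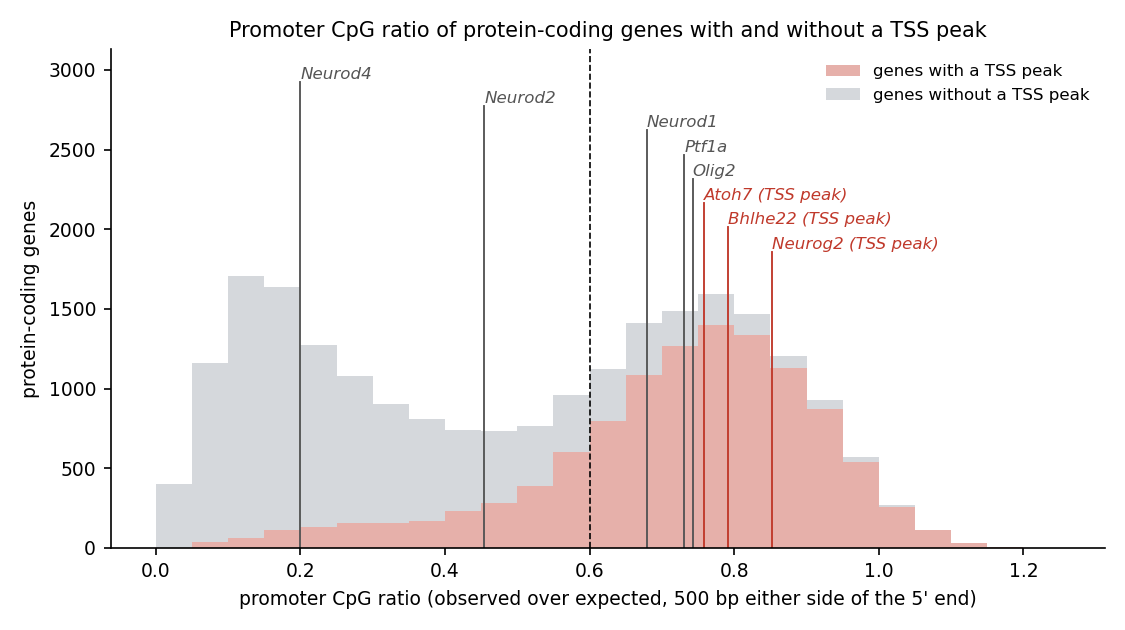
Distribution of the promoter CpG ratio over 22367 protein-coding genes, stacked by whether the gene had a TSS peak, with the ratio of each proneural gene as a vertical line. The dashed line marks the ratio of 0.6. The lines of Olig2, Ptf1a and Neurod1 stand without a TSS peak in the range where 86.4% of genes have one.

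Other bHLH genes were counted in the same way. Of 10 further neural bHLH genes, 2 had a TSS peak, the longer being that of Nhlh2 at 2783 bp. No TSS peak was found for Neurog1, Neurog3, Neurod6, Atoh1, Olig1, Olig3, Bhlhe23 or Nhlh1. The E proteins Tcf3, Tcf4 and Tcf12, the partners with which proneural factors dimerize, had TSS peaks in 3 of 3 genes, with a median pileup of 24.06 and a median fold enrichment of 7.56. These medians were above the 15.04 and 3.97 of the 3 proneural TSS peaks, although Tcf4, with a pileup of 13.83, was below Atoh7 and Bhlhe22. Of 16 bHLH genes of other lineages, such as Myod1, Hand1, Tal1 and Twist1, 1 had a TSS peak, that of Mesp2 with a length of 565 bp.

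Genes that act downstream in the retinal lineages were also counted. Of these 17 genes, 9 had a TSS peak, against 49.8% of all protein-coding genes. The longest was that of Sox11 at 5750 bp and the shortest that of Isl1, a ganglion cell factor, at 1154 bp. Pou4f1, Dlx2, Tfap2a, Tfap2b, Lhx1, Crx, Rxrg and Ebf1 had none. Pou4f2, which follows Atoh7 in the ganglion cell cascade, had a TSS peak of 2189 bp with a pileup of 8.69 and a fold enrichment of 3.49, and Otx2, a determinant of photoreceptors, had one of 2411 bp with 11.14 and 4.03. The TSS peaks of the 10 progenitor markers were longer, with a median of 5112.5 bp from 1430 bp at Mki67 to 32865 bp at Pax6, against a median of 1429 bp for the 3 proneural genes. Their median pileup of 15.45 was close to the 15.04 of the proneural genes. The 95% Wilson interval for the share with a TSS peak was 13.7 to 69.4% for the 8 proneural genes and 72.2 to 100% for the progenitor markers. It covers counting error only. Both lists were chosen and not drawn at random, so the intervals do not test a difference between them.

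**Figure D5:**
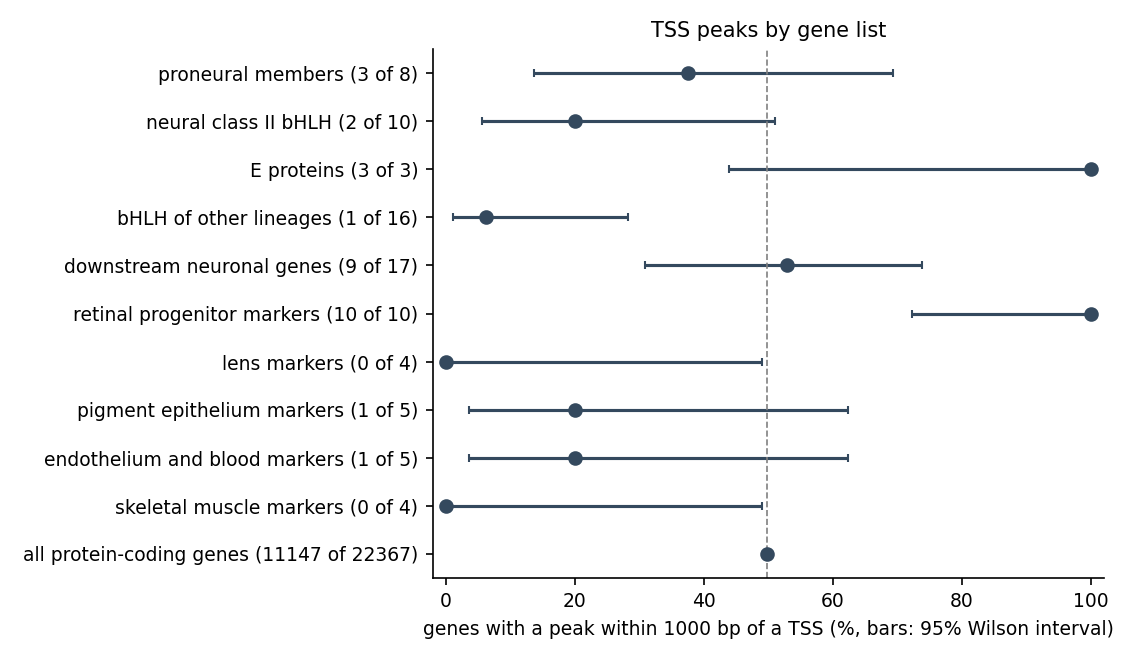
Share of genes with a TSS peak in each list, with the number of genes in parentheses. Points give the percentage, bars are 95% Wilson intervals for counting error, and the dashed line marks the 49.8% of all protein-coding genes. The lists were chosen and not drawn at random, so the bars do not test differences between them. The proneural genes stand at 37.5%, the E proteins and progenitor markers at 100% and the bHLH genes of other lineages at 6.25%.

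Peaks farther away were counted within 500 kb of each TSS, where protein-coding genes had a median of 8 peaks. Atoh7 and Neurog2 had 15 each, Olig2 16, Neurod2 26, Neurod1 6, Ptf1a 5, Bhlhe22 4 and Neurod4 2. Of those at no TSS, Neurog2 had 9, as many as or more than 99.1% of protein-coding genes, against a median of 1. Neurod2 had 6, Atoh7, Neurod1, Neurod4 and Olig2 had 2 each, and Bhlhe22 and Ptf1a had 0. The 9 peaks around Neurog2 were from 396 to 3031 bp long, with pileups of 6.59 to 12.29. Of these, 6 lay within the neighbouring gene Ank2, with midpoints from -375 to -246 kb, and 2 lay within Alpk1, at 62.4 and 95.9 kb. The TSS nearest to them was that of the host gene, and only the peak at 7.43 kb was nearer to Neurog2 than to any other protein-coding gene. The longest, at chr3:126996151-126999181 within Ank2, had a fold enrichment of 4.32, and the peak at chr3:127430683-127433228 within Alpk1 had 4.79. These 2 were the only ones of the 9 that met the stricter limits. Which gene any of these peaks acts on was not measured here.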

How the data were processed

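ChIP-seq was performed by the authors with an antibody to H3K27ac on E14 retina and reads were aligned with Bowtie2 to mm9. Per the file header, MACS 2.1.0.20140616 called broad regions on pooled replicates (q at most 0.05, or 0.1 for joined broad stretches), with fragments extended to 313 bp. The deposited columns are pileup (a signal scaled to the smaller library), fold enrichment (a ratio to the isotype control), and p-value and q-value as -log10. Lengths are in bp and positions are 1-based. Upstream names follow the submitters' processing notes, and the version of Bowtie2 is not given in the sources used here.

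Here, peaks were joined to GENCODE vM1 genes by an overlap of at least 1 bp. A TSS peak lay within 1000 bp of any annotated TSS of the gene, so genes with more TSSs have more chances of one. Percentiles give the share of peaks at or below a value. RefSeq promoters matched 7 of the 8 genes. The genes named were the members, the genes at the TSS of their window peaks, and from the other lists the genes with the longest and shortest TSS peak and those without. Pou4f2 and Otx2 were added for their roles, some values are not reported here, and examples from the long lists were shortened. The members and lists were chosen with earlier results of these data known. The overlap, percentile and motif steps were tested on simulated data. Python 3.11.15, numpy 2.4.6, pandas 2.3.3, scipy 1.17.1, pysam 0.24.0 and matplotlib 3.10.9 were used. Alternatives were other TSS definitions, windows, stricter or joined peaks, another set for percentiles, other E-box definitions and RefSeq TSSs.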

Additional observations from a re-analysis of the deposited data

How the results depend on the processing

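No paired analysis was possible because the list pools both replicates, and leaving out a replicate could not be done for the same reason. The 3 genes with a TSS peak became 2 when a peak had to cover the TSS (Bhlhe22 was lost, and the share of all protein-coding genes was 44.2%), 4 with a promoter of 5000 bp before and 1000 bp after the TSS (Neurod1 was gained, and the share of all protein-coding genes was 51.4%), and 1 with stricter peaks, against 37.8% of protein-coding genes. Stricter peaks left 4 peaks in the windows, and windows of 100 kb held 18. Peaks at no TSS numbered 5 when a peak had to cover a TSS and 7 in windows of 100 kb, in place of 3. The median percentiles of the TSS peaks (73.8 for length, 49.9 for pileup, 32.1 for fold enrichment) moved with the peaks used or with the list they were ranked in. Covering the TSS gave 38.4 for pileup and 31.2 for fold enrichment, and the longer promoter gave 72.0493, 38.4 and 38.0, in the order of length, pileup and fold enrichment. In that order stricter peaks gave 44.6, 34.1 and 33.3, and protein-coding TSS peaks as the reference gave 71.5, 38.8 and 23.9. Joining peaks less than 1000 bp apart merged none of the 13463, so it changed nothing and is not counted. Of the others, 21 of 37 alternative values were close to those reported, counts within 1.5 times and percentiles and densities within the 95% Wilson interval. That interval treats the listed peaks, or the bases of a peak, as the sample, and does not measure the spread between genes. Some of the 21 could not have differed. Atoh7, Neurog2 and Bhlhe22 have 1 annotated TSS each, so using the outermost 5′ end only left their TSS peaks unchanged. Also among the 21 were those for 20 kb windows, midpoints and RefSeq TSSs. The RefSeq setting was added after seeing the data, with the GENCODE TSS kept for Bhlhe22. The TSS of Neurog2 is the same in both sources. Of the 3 genes with a TSS peak, only Atoh7 was therefore checked at another position. The median E-box density of the 3 peaks at the gene's own TSS was 3.08 per kb, the value of the Neurog2 peak. The interval of 1.49 to 6.34 counts the sites in that peak alone. With the preferred E-boxes only the median was 1.84, and it could not have been higher because these are a subset of CANNTG. In the middle 300 bp it was 3.33. The control held 9210563 tags, and the effect of depth on the calls was not tested.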
